A study of Mus musculus with 9 samples.

Results

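The 9 genes described here encode transcription factors of the macrophage lineage: Spi1 (the ETS factor PU.1), Runx1, Irf8, Irf4, Klf2, Klf4, Egr1, Egr2 and Maf. They are listed by symbol as myeloid lineage factors, a rule that uses no measured value, and were matched to mouse Ensembl identifiers in the count tables, where they are 9 of 55487 genes. All 9 were found. RNA was sequenced from unstimulated RAW264.7 macrophages, a transformed line of mouse macrophages, in 9 libraries: 3 of wild-type cells, 3 of C/EBPδ knock-out cells and 3 of ΔTAD cells. The knock-out and ΔTAD cells were made from the wild-type line with CRISPR guides. ΔTAD cells express from the endogenous locus a C/EBPδ that keeps its DNA binding but lacks the transactivation domain, and the knock-outs are clones from the same guides in which the deletion shifted the reading frame, so that parts of the Cebpd transcript can remain. Edited cells were grown from single sorted cells, so a difference between clones and one between genotypes cannot be told apart where a genotype rests on 1 clone. The comparison of the 3 genotypes asks whether losing C/EBPδ and losing its transactivation have the same effect on transcription. The series' description speaks of 3 independent clones without saying whether these were 3 of each genotype, so the p-values measure the spread between these libraries, which may be technical.

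PU.1 is the factor without which macrophages do not form: it opens chromatin at myeloid enhancers and binds there beside RUNX1, C/EBP factors and, through a shared ETS-IRF element, IRF8 or IRF4. IRF8 directs progenitors towards monocytes, KLF4 and KLF2 act in monocyte differentiation and in restraining inflammatory activation, EGR1 and EGR2 are made quickly after growth factor signals and accompany macrophage differentiation, and MAF holds mature macrophages out of the cell cycle.

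Of the 9 genes, 7 passed the filter on low counts and were tested among 14312 genes, and Egr1 and Maf did not. In knock-out against wild-type macrophages, 6 of the 7 tested factors were called at an adjusted p under 0.01 (edgeR's quasi-likelihood test, Benjamini-Hochberg adjustment over all genes tested), where 45.2% of all tested genes were called. All 6, Spi1, Runx1, Irf8, Klf2, Klf4 and Egr2, were higher, where 22.8% of tested genes were called higher and 22.4% lower. In ΔTAD against wild-type macrophages 5 of 7 were called, beside 49.7% of all tested genes: Spi1, Irf8, Klf2 and Klf4 were higher and Irf4 was lower, where 26.3% of tested genes were called higher and 23.4% lower. With calls this frequent over the transcriptome, being called says little of these factors in particular, and the sizes of the differences carry more. In the direct comparison of knock-out with ΔTAD macrophages 6 of 7 factors were called, beside 33% of all tested genes. Runx1, Irf4, Klf2 and Egr2 were higher in knock-out macrophages, and Spi1 and Klf4 were higher in ΔTAD macrophages, where 13.9% of tested genes were called higher and 19.1% lower in the knock-out. At an adjusted p under 0.05 the members called were again 6, 5 and 6 in these 3 comparisons, beside 55%, 59.5% and 45.3% of all tested genes. With an adjusted p under 0.01 and a difference of at least 1 on the log2 scale, they were Egr2 in the first, Irf4 and Klf4 in the second, and Klf4 and Egr2 in the third, beside 7.66%, 9.31% and 3.93% of all tested genes. Over all tested genes, the median absolute log2 fold change from wild-type was 0.239 for the knock-out and 0.273 for ΔTAD, and that between the edited genotypes was 0.18.

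**Figure D1:**
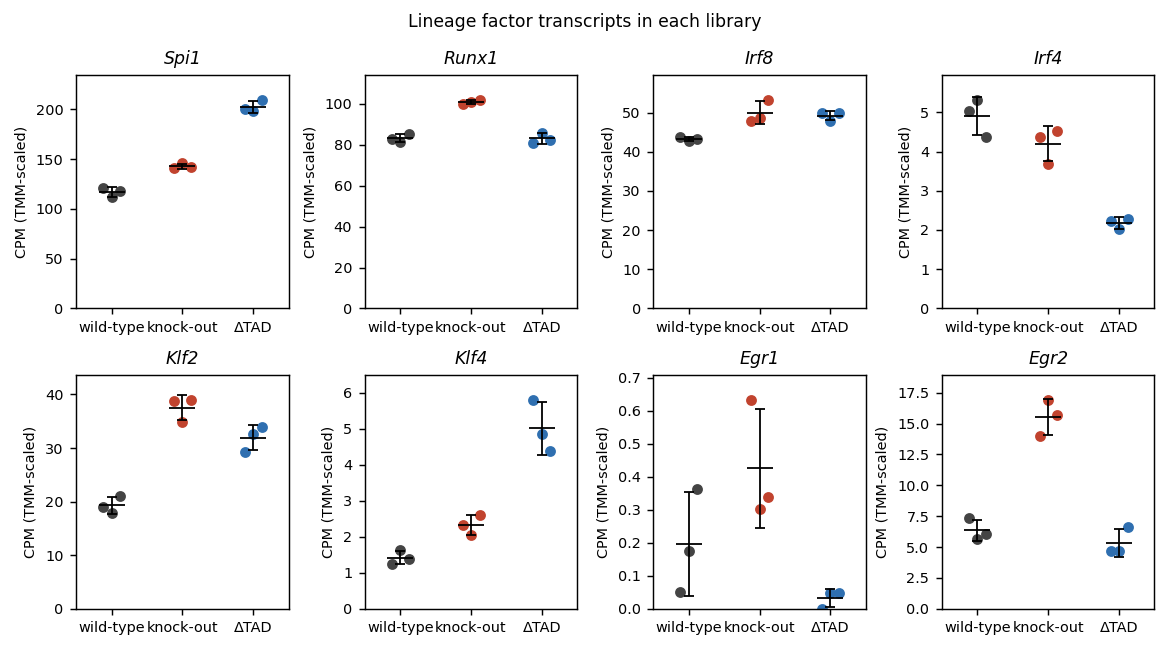
CPM (counts per 1000000 counts of the library, after TMM scaling) of 8 lineage factors in each library, as points, with the mean and SD of the 3 libraries of a genotype as bars; Maf had no count and is not drawn. Spi1 and Klf4 are highest in the 3 ΔTAD libraries, and Runx1 and Egr2 are highest in the 3 knock-out libraries.

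Libraries held 16113306 to 20981829 counts on genes. One library, ΔTAD replicate 1, stood apart: its TMM factor was 0.888, 16.28% of its records were not uniquely aligned against 11.78% to 13.58% in the others, and its counts differed from those of the other ΔTAD libraries by a chi-square per degree of freedom of 150.18 and 150.42, against 2.01 to 4.18 for the other pairs of a genotype. Without it, 4 of 7 factors were called in ΔTAD against wild-type and 6 of 7 in knock-out against ΔTAD macrophages, beside 47.5% and 30.9% of the 14781 genes then tested. Cebpd, which the guides targeted, was at 6.132, 7.292 and 6.116 CPM in wild-type, 5.22, 5.499 and 5.61 CPM in knock-out and 4.897, 5.234 and 6.187 CPM in ΔTAD libraries, and was not called in either comparison with wild-type. These values cover the whole gene, parts outside the edit included, and they check neither edit. Of 10 macrophage markers, 9 were tested, and their summed level was 3763 to 3950 CPM in wild-type, 5307 to 5740 CPM in knock-out and 7699 to 7926 CPM in ΔTAD libraries. Lyz2, lysozyme, took a mean of 1167, 2114 and 4192 CPM of these sums in wild-type, knock-out and ΔTAD macrophages, whereas the median log2 fold change of the 9 genes was 0.15 and 0.28, and Fcgr1 was lower in both edited genotypes. Cd68, Cd14, Ptprc and Csf1r were abundant in every genotype, the lowest mean being 211.6 CPM for Ptprc in wild-type macrophages. Mertk, a receptor of tissue macrophages, had 0 to 2 counts. Flt3, which defines dendritic cells and their precursors, had no count, the 6 dendritic cell markers summed to at most 17.4 CPM, and B cell, T cell, erythroid, neutrophil and fibroblast marker lists each summed to at most 1.70 CPM. The 6 osteoclast markers summed to 96.7 to 104.4 CPM in wild-type, 176.8 to 180.4 CPM in knock-out and 1543 to 1611 CPM in ΔTAD libraries, and Ctsk, a bone matrix protease, was at a mean of 1545 CPM in ΔTAD libraries. Calcr, the calcitonin receptor of osteoclasts, had at most 1 count, and Dcstamp, needed for osteoclast fusion, fell by 0.58 on the log2 scale in ΔTAD macrophages and rose by 0.82 in knock-out macrophages. Ocstamp, also needed for that fusion, fell by 1.73 in knock-out macrophages, from a mean of 1.07 to 0.327 CPM. The part of these shifts in the results on the lineage factors was not tested. In bulk RNA, fewer cells with a transcript and less transcript per cell cannot be told apart.

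Spi1 lies at chr2:91082390-91115756 (GRCm38, plus strand). It was the highest of the factors per exon length in all 3 genotypes, and it rose in both edited genotypes, most in ΔTAD macrophages. Wild-type libraries had 121.5, 111.8 and 118.3 CPM, knock-out libraries 141.0, 146.0 and 142.5 CPM, and ΔTAD libraries 200, 198.6 and 209.9 CPM. No library of a genotype overlapped those of another. For Spi1 and the factors below, the share of all tested genes whose libraries separate in this way is not given. Separation is therefore not read as particular to these factors. Spi1 rose by 0.29 (SE 0.038) on the log2 scale in knock-out macrophages (edgeR adjusted p = 5.37e-07), a 1.22-fold difference, and by 0.79 (SE 0.0375) in ΔTAD macrophages (edgeR adjusted p = 3.79e-15), a 1.73-fold difference. The log2 fold change of knock-out over ΔTAD was -0.50 (SE 0.037, edgeR adjusted p = 8.7e-11). Without ΔTAD replicate 1 the ΔTAD difference from wild-type was 0.77. The other genes of the PU.1 subfamily, Spib and Spic, which serve in B cells and in red pulp macrophages, had at most 3 counts in every library.

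Published target genes of PU.1 in myeloid cells were examined beside Spi1. Of the 19 listed, 17 were tested. In knock-out macrophages 9 were higher, 3 lower and 5 not called, with a median log2 fold change of 0.15, and in ΔTAD macrophages 12 were higher, 2 lower and 3 not called, with a median of 0.28, beside medians of -0.001 and -0.003 over all genes tested. With library size alone as the scaling, 5 and 7 of them were higher. Over all tested genes, 22.8% and 26.3% were called higher in the main fit. Csf2ra, a subunit of the GM-CSF receptor, rose from 0.494 CPM in wild-type to 3.31 CPM in knock-out and 18.8 CPM in ΔTAD macrophages, log2 fold changes of 2.75 and 5.27. Lyz2 rose as given above. Csf1r, the receptor for M-CSF, was at 388.6 CPM in wild-type and 373.2 CPM in knock-out macrophages, where it was not called, and rose to 447.4 CPM in ΔTAD macrophages, a log2 fold change of 0.20 that with library size alone was 0.11 and not called. Other genes of the list went down. The Fc receptor gene Fcgr1 fell by 1.14 on the log2 scale in knock-out and by 0.44 in ΔTAD macrophages, and Fcgr3 fell by 1.13 in ΔTAD macrophages. Between knock-out and ΔTAD macrophages, 10 of the 17 were lower and 1 higher in the knock-out, beside 19.1% and 13.9% of all tested genes. With library size alone as the scaling, 7 were lower and 1 higher.

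Runx1 (chr16:92601466-92826149, minus strand) encodes the DNA-binding partner of CBFβ. It separated the 2 edited genotypes: knock-out macrophages had more of it, and ΔTAD macrophages could not be distinguished from wild-type. Wild-type libraries had 83.01, 81.25 and 85.26 CPM, knock-out libraries 99.81, 100.8 and 102.1 CPM, and ΔTAD libraries 80.79, 86.0 and 82.57 CPM. The knock-out libraries lay above all others, while the ranges of wild-type and ΔTAD libraries overlapped. Runx1 rose by 0.28 (SE 0.0338) on the log2 scale in knock-out macrophages (edgeR adjusted p = 1.42e-07), which is 1.21-fold, and ΔTAD macrophages differed from wild-type by 0.00 on that scale, with a 95% interval of -0.07 to 0.07. Knock-out exceeded ΔTAD by 0.28 (edgeR adjusted p = 4.55e-07). An antisense gene that shares exon bases with Runx1, Gm26626, had 0 to 4 counts. Of 14 RUNX genes and partners 12 were tested: 2 were higher and 4 lower in knock-out, and 1 higher and 4 lower in ΔTAD macrophages. Runx1 is 1 of the 12, and 45.2% and 49.7% of all tested genes were called in these comparisons. Runx2 rose by 0.64 and 0.35 on the log2 scale and Runx3 fell by 0.47 and 0.42 in knock-out and ΔTAD macrophages. Cbfb, the common partner, stayed uncalled at 160.3, 165.5 and 162 CPM in wild-type, knock-out and ΔTAD macrophages. The corepressor genes Tle3 and Rcor1 fell in both edited genotypes.

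**Figure D2:**
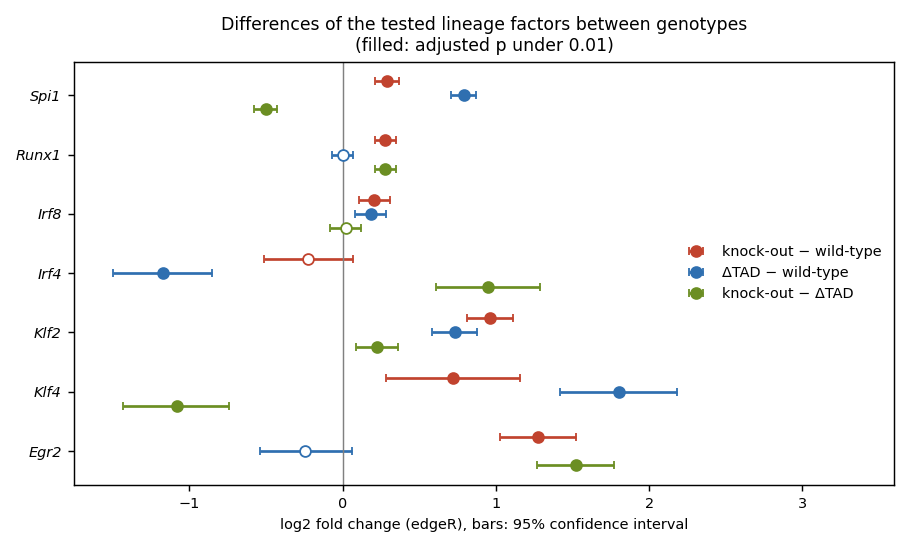
log2 fold changes of the 7 tested lineage factors in the 3 comparisons with 95% confidence intervals from edgeR; filled points passed an adjusted p of 0.01. The knock-out and ΔTAD points lie apart for Spi1, Runx1, Irf4, Klf4 and Egr2 and are close for Irf8, whose direct difference was 0.02.

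Irf8 and Irf4 are the 2 interferon regulatory factors that bind composite elements together with PU.1. Irf8 (chr8:120736358-120756694, plus strand) differed little between genotypes. Wild-type libraries had 43.82, 42.77 and 43.17 CPM, knock-out libraries 47.87, 48.7 and 53.32 CPM, and ΔTAD libraries 49.81, 47.97 and 49.87 CPM. Every edited library was above every wild-type library, and the knock-out and ΔTAD ranges overlapped. The log2 fold changes were 0.21 (SE 0.0483, edgeR adjusted p = 7.63e-04) in knock-out and 0.18 (SE 0.0482, edgeR adjusted p = 0.00199) in ΔTAD macrophages, 1.15-fold and 1.14-fold. The direct difference between knock-out and ΔTAD was 0.02 with a 95% interval of -0.08 to 0.12. Both calls depended on the processing: with library size alone as the scaling neither was called (edgeR adjusted p = 0.0167 and 0.237), the knock-out call was lost without knock-out replicate 3 (0.15), and the ΔTAD call was lost with DESeq2 (adjusted p = 0.0107), without ΔTAD replicate 1 (0.15) and without ΔTAD replicate 3 (0.17).

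Of 12 published IRF8 target genes 7 were tested: 4 were higher and 2 lower in knock-out, and 5 higher and 2 lower in ΔTAD macrophages. Beside them, 45.2% and 49.7% of all tested genes were called. With library size alone as the scaling, 3 were higher and 1 lower in knock-out, and 3 higher and 2 lower in ΔTAD macrophages. Cst3, cystatin C, rose from 316.4 CPM to 483.1 and 651.8 CPM, and the cytokine gene Il18 fell from 4.66 CPM to 2.78 and 3.1 CPM in knock-out and ΔTAD macrophages.

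Irf4 (chr13:30749226-30766976, plus strand), which acts in alternatively activated macrophages and in lymphocytes, was lower in ΔTAD macrophages. Wild-type libraries had 5.035, 5.324 and 4.36 CPM, knock-out libraries 4.376, 3.686 and 4.533 CPM, and ΔTAD libraries 2.238, 2.017 and 2.284 CPM. All 3 ΔTAD libraries lay below every other library, and the knock-out and wild-type ranges overlapped. In ΔTAD macrophages Irf4 fell by 1.18 (SE 0.158) on the log2 scale (edgeR adjusted p = 6.36e-07), to a 0.443-fold level. In knock-out macrophages its log2 fold change was -0.22 with a 95% interval of -0.51 to 0.07 (edgeR adjusted p = 0.185). Knock-out exceeded ΔTAD by 0.95 (SE 0.163, edgeR adjusted p = 4.66e-05). Irf4 thus moved opposite to Irf8 in ΔTAD macrophages, where the rise of Irf8 was small and its call depended on the processing. The 250 bases before its RefSeq transcription start (chr13:30748983-30749232, GRCm38.p6, plus strand), 5′ to 3′, are shown because Irf4 is the factor that fell, with 2 GC boxes (GGGCGG on either strand), the nearer from -51 to -46, and a PU.1-type GAGGAA on the reverse strand from -19 to -14, in capitals.
Irf4: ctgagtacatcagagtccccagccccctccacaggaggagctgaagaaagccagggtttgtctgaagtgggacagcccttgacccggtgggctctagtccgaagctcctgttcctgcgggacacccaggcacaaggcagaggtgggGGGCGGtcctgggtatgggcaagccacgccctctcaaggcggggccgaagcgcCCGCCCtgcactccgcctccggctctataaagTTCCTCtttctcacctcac
Positions are counted back from the start, -1 being the last base. Of 32851 windows of this length, 32.7% hold a GC box and 23.3% a GAGGAA.

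In the IRF family, 11 of 12 genes were tested: 6 were higher and 1 lower in knock-out, and 5 higher and 2 lower in ΔTAD macrophages. Irf8 and Irf4 are among the 11, and 45.2% and 49.7% of all tested genes were called in these comparisons. Irf1, an activator of interferon-responsive genes, rose by 0.86 and 1.11 on the log2 scale. Irf7, the amplifier of type I interferon production, rose from 1.32 to 3.58 CPM in knock-out macrophages and was at 1.34 CPM in ΔTAD macrophages. Irf9, the DNA-binding part of the complex that answers type I interferon, had the same order, 7.81, 14.4 and 9.2 CPM in wild-type, knock-out and ΔTAD macrophages. For both, the direct difference was called, 1.40 for Irf7 and 0.66 for Irf9 on the log2 scale. Of 14 genes of alternatively activated macrophages, 5 were tested, namely Irf4 itself, Stat6, Il4ra, Kdm6b and Clec10a: 1 was called in the knock-out, lower, and 2 were higher and 3 lower in ΔTAD macrophages, where library size alone as the scaling left the 3 lower, Irf4 among them, as the calls. Without ΔTAD replicate 1, 1 was higher and 2 were lower there. The histone demethylase gene Kdm6b fell by 0.70 and 0.94 on the log2 scale in knock-out and ΔTAD macrophages, and Il4ra, the receptor subunit for interleukin 4, was higher by 0.60 in ΔTAD macrophages.

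Klf2 (chr8:72319033-72321656, plus strand) and Klf4 (chr4:55527143-55532466, minus strand) encode related zinc finger factors, and both rose in both edited genotypes, in opposite order. Klf2 was at 19.04, 17.88 and 21.07 CPM in wild-type, 38.7, 34.86 and 38.98 CPM in knock-out and 29.31, 32.56 and 33.88 CPM in ΔTAD libraries. Klf4 was at 1.246, 1.62 and 1.393 CPM in wild-type, 2.32, 2.054 and 2.607 CPM in knock-out and 5.806, 4.85 and 4.378 CPM in ΔTAD libraries. For both genes the libraries of the 3 genotypes did not overlap, with Klf2 highest in knock-out and Klf4 highest in ΔTAD libraries. As for Spi1, no share over all tested genes stands beside this separation. Klf2 rose by 0.96 (SE 0.0718) on the log2 scale in knock-out (edgeR adjusted p = 2.85e-11) and by 0.73 (SE 0.0729) in ΔTAD macrophages (edgeR adjusted p = 4.33e-09), 1.95-fold and 1.66-fold. Klf4 rose by 0.72 (SE 0.214) in knock-out (edgeR adjusted p = 0.00613) and by 1.80 (SE 0.184) in ΔTAD macrophages (edgeR adjusted p = 6.99e-09), 1.65-fold and 3.49-fold. Knock-out exceeded ΔTAD by 0.23 for Klf2 (edgeR adjusted p = 0.00716), and for Klf4 the log2 fold change of knock-out over ΔTAD was -1.08 (edgeR adjusted p = 1.22e-05).

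The Klf4 counts are small, 23 to 28 in wild-type and 34 to 46 in knock-out libraries, and its call in the knock-out was lost with DESeq2 (adjusted p = 0.0156), with limma-voom (0.0105) and without knock-out replicate 1 (log2 fold change 0.73), knock-out replicate 3 (0.63), wild-type replicate 1 (0.63) or wild-type replicate 3 (0.71). The direct Klf2 difference was lost without knock-out replicate 1 (0.21), knock-out replicate 3 (0.19) or ΔTAD replicate 2 (0.23).

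The 250 bases before the RefSeq start of each are shown because both genes rose; capitals mark GC boxes (GGGCGG), EGR-type GCGNGGGCG and, in Klf2, MEF2-type letters (here CTAAATTTAG), searched on both strands, and GC boxes and EGR-type letters overlap in both. The Klf2 window is chr8:72318812-72319061 on the plus strand and the Klf4 window chr4:55532476-55532725 on the minus strand (GRCm38.p6), both written 5′ to 3′ along the gene.
Klf2: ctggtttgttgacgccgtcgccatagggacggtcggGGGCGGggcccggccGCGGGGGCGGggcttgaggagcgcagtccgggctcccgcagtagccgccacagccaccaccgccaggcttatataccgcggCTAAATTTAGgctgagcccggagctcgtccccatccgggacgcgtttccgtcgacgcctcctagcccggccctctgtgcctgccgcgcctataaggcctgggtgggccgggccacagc
Klf4: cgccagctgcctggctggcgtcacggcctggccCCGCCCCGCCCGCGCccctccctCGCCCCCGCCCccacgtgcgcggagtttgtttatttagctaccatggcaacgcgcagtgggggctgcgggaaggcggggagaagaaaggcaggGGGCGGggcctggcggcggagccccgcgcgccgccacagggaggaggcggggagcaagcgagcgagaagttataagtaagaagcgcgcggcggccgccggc
In Klf2 the MEF2-type letters lie from -118 to -109 and the EGR-type letters from -199 to -191. Klf4 has EGR-type letters from -211 to -203 and from -194 to -186. Of all windows, 3.2% hold the MEF2-type letters, 4.7% the EGR-type letters and 32.7% a GC box. Their GC content was 71.2% for Klf2 and 74% for Klf4, with a median of 52.4% over all windows.

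ERK5 and the MEF2 factors it phosphorylates are known to drive Klf2 and Klf4. The 7 genes of this module were tested: 4 were higher and 1 lower in knock-out, and 3 higher and 2 lower in ΔTAD macrophages. Mef2c rose by 0.83 and 0.73 on the log2 scale and Map2k5, the kinase of ERK5, by 0.47 and 0.57. Mapk7, which encodes ERK5, was at 24, 22.9 and 23.3 CPM in wild-type, knock-out and ΔTAD macrophages and was not called. In the KLF family, 11 of 17 genes were tested, 5 higher and 2 lower in each edited genotype, Klf2 and Klf4 included. Beside both lists, 45.2% of all tested genes were called in knock-out and 49.7% in ΔTAD macrophages. Klf6, an early response gene, rose from 36.8 CPM to 148.8 CPM in knock-out and 105.4 CPM in ΔTAD macrophages. Klf9, a repressor induced by glucocorticoids, fell by 0.48 and 1.48 on the log2 scale.

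**Figure D3:**
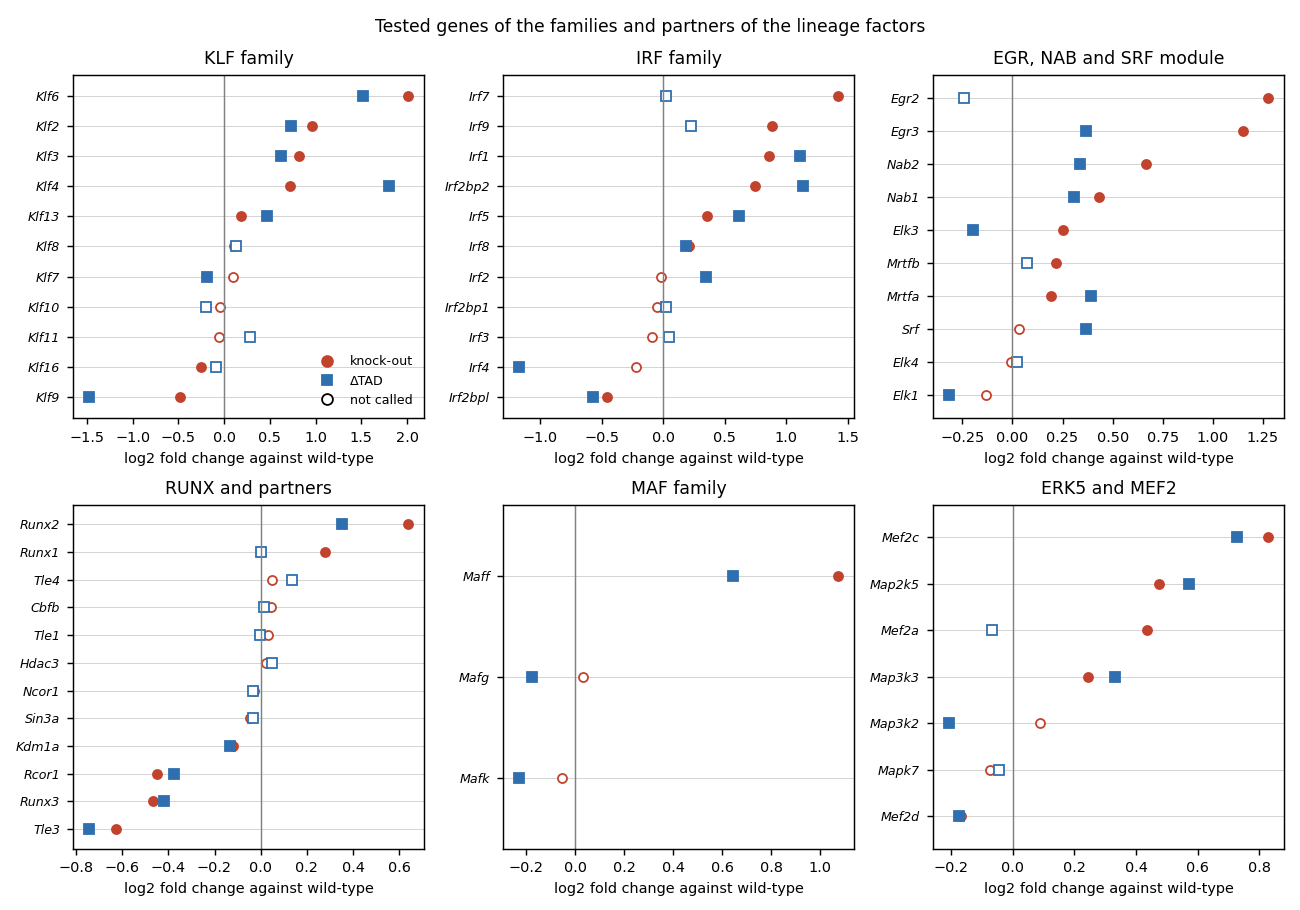
log2 fold changes against wild-type of tested genes in 6 families and partner groups of the lineage factors, knock-out as circles and ΔTAD as squares; open symbols were not called. In the KLF panel Klf6 lies highest in the knock-out and Klf4 in ΔTAD macrophages, and in the EGR panel Egr2 and Egr3 lie highest in the knock-out.

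Egr2 (chr10:67535475-67542188, plus strand) encodes a zinc finger factor that macrophages need for parts of their differentiation and alternative activation. It rose in knock-out macrophages. Wild-type libraries had 7.329, 5.672 and 6.055 CPM, knock-out libraries 14.02, 16.92 and 15.7 CPM, and ΔTAD libraries 4.687, 4.658 and 6.663 CPM. The 3 knock-out libraries lay above all others, and the ranges of wild-type and ΔTAD libraries overlapped. Egr2 rose by 1.28 (SE 0.12) on the log2 scale in knock-out macrophages (edgeR adjusted p = 1.81e-09), 2.42-fold, the largest log2 difference of a tested factor from wild-type in that genotype. ΔTAD macrophages gave a log2 fold change of -0.24 with a 95% interval of -0.54 to 0.06 (edgeR adjusted p = 0.153). Knock-out exceeded ΔTAD by 1.52 (SE 0.123, edgeR adjusted p = 4.91e-10), 2.87-fold.

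Egr2 has 5 RefSeq start windows in the table, and 3 of them overlap. The first of these 3 (chr10:67537619-67537868, GRCm38.p6, plus strand, inside the gene and before an internal start) is shown because it holds a CArG box, the letters bound by SRF, from -72 to -63, beside a CCAAT box on the reverse strand from -121 to -117 and a PU.1-type GAGGAA on the reverse strand from -81 to -76, in capitals.
Egr2: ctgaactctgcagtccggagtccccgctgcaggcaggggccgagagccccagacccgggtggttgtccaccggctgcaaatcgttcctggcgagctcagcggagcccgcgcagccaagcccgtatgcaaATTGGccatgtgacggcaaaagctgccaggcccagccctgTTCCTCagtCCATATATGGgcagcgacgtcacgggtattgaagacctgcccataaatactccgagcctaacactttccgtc
A CArG box was found in 1.47% of all windows and a CCAAT in 33.8%. The window shown was picked among 5 for its CArG box, so this share does not tell how unusual the match is. The Egr2 window at the start of the gene held no CArG box, and the window after it held another, CCTTTTTTGG. Each of the 2 windows of Runx1 held 2 CCAAT boxes, and the first of the 2 windows of Irf8 held 1. The C/EBP-type letters TTGCNNAA, held by 9.56% of all windows, were in none of the 12 windows of the 6 factors with an entry, which says only that these letters are absent from these windows.

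Egr1 (chr18:34859823-34864984, plus strand), a relative of Egr2 and a classical serum response gene, was near the floor. It had 1, 3 and 6 counts in wild-type, 12, 5 and 6 in knock-out and 0, 1 and 1 in ΔTAD libraries, in all 10, 23 and 2 counts. The knock-out and wild-type counts overlapped, and each knock-out library had more counts than each ΔTAD library. With 3 counts per library as the floor of the ΔTAD libraries, the knock-out mean of 0.425 CPM was 2.57 times that floor of 0.166 CPM. This ratio leaves out the counting error of the 23 knock-out counts, 12 of them in 1 library, so it is not a lower bound. With every gene of at least 1 count kept, edgeR's adjusted p was 0.151 for knock-out and 0.0765 for ΔTAD against wild-type and 4.12e-04 for knock-out against ΔTAD. The last rests on 23 against 2 counts. That fit measures the spread otherwise than the main fit. For Spi1 in ΔTAD against wild-type its edgeR adjusted p was 1.39e-96 against 3.79e-15 in the main fit. For Klf4 in knock-out against wild-type these were 0.00623 and 0.00613. The Egr1 p-values are therefore not comparable with the main ones. Per exon length, Egr2 stood above Egr1 in every genotype.

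In the EGR family with its NAB corepressors and the SRF module, 10 of 12 genes were tested: 7 were called in the knock-out, each of them higher, and 5 higher and 2 lower in ΔTAD macrophages. Egr2 is 1 of the 7. Over all tested genes 45.2% were called in knock-out macrophages, 22.8% higher, and 49.7% in ΔTAD macrophages, 26.3% higher. With library size alone as the scaling, 6 were higher in knock-out, and 4 higher and 2 lower in ΔTAD macrophages. Egr3, like Egr2, was highest in knock-out macrophages, with 7 CPM in wild-type, 15.6 CPM in knock-out and 8.97 CPM in ΔTAD macrophages, and exceeded ΔTAD by 0.79 in the knock-out (SE 0.0919, edgeR adjusted p = 2.56e-07). Nab2, which EGR factors induce and which restrains them, was at 51.8, 82.3 and 65.2 CPM. Nab1 rose by 0.43 and 0.30 on the log2 scale. Srf was at 75.8 CPM in wild-type and 77.6 CPM in knock-out, where it was not called, and rose to 97.9 CPM in ΔTAD macrophages. Egr4 had no count.

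Egr2, Klf2, Klf4 and Egr1 also belong to the immediate-early genes, transcribed within minutes of a signal without new protein. Of 34 listed, 33 were tested: 17 were higher and 6 lower in knock-out, and 16 higher and 11 lower in ΔTAD macrophages, with median log2 fold changes of 0.37 and 0.11. Egr2, Klf2 and Klf4 are among the 17. Over all tested genes 45.2% and 49.7% were called, and the medians were -0.001 and -0.003. Myc rose from 2.54 CPM to 26.9 and 24 CPM. Fos rose more in ΔTAD (2.39) than in knock-out macrophages (1.07), with a log2 fold change of knock-out over ΔTAD of -1.32 (SE 0.0637, edgeR adjusted p = 3.12e-14). Fosb rose by 0.43 in knock-out and fell by 0.68 in ΔTAD macrophages. Dusp2, a phosphatase of ERK, fell by 1.92 and 1.47, and Sgk1, a serum-induced kinase, fell by 1.36 and 1.87. The immediate-early genes did not all move one way.

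**Figure D4:**
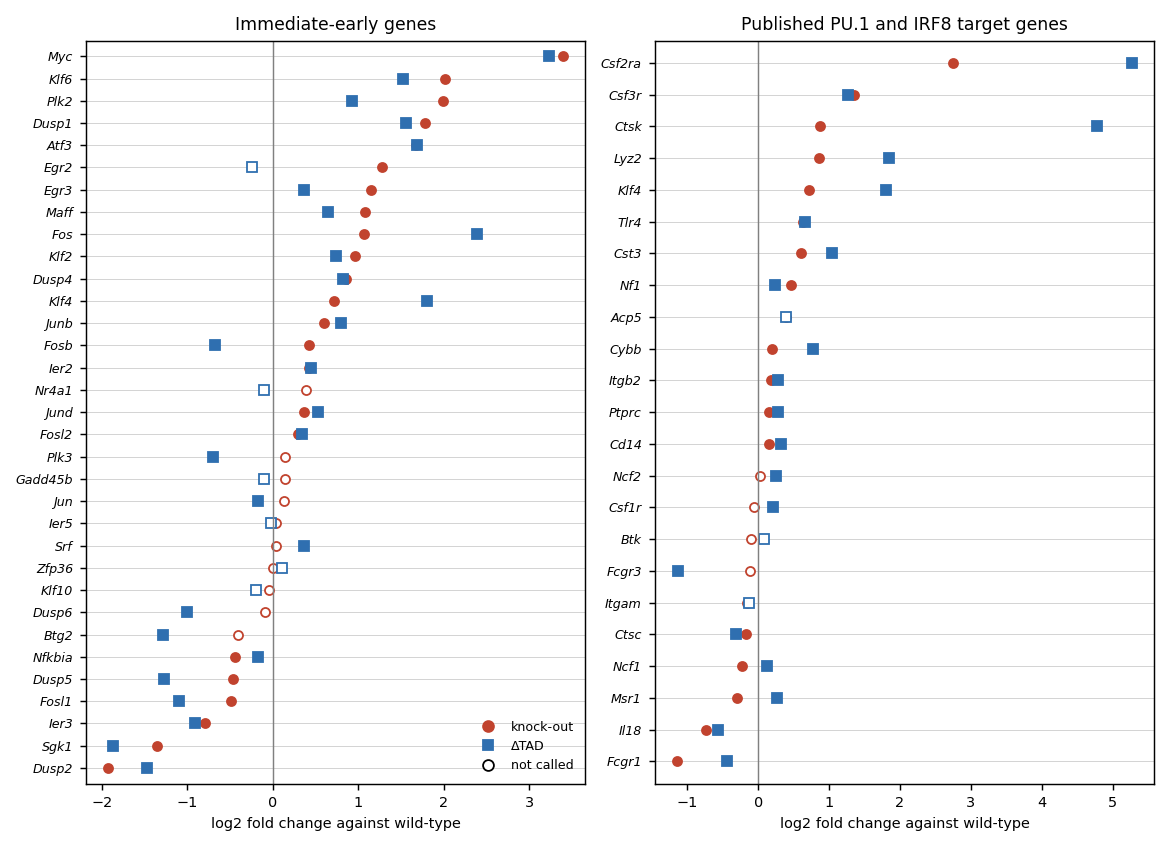
log2 fold changes against wild-type of immediate-early genes (left) and of published PU.1 and IRF8 target genes (right), knock-out as circles and ΔTAD as squares; open symbols were not called. Myc lies farthest to the right among the immediate-early genes, and Csf2ra and Ctsk among the targets, the latter at 0.88 in knock-out and 4.78 in ΔTAD macrophages.

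Maf (chr8:115682942-115707794, minus strand) had 0 counts in each of the 9 libraries. A count of 0 allows up to 3 counts per library, which is 0.143 to 0.21 CPM with TMM scaling, so Maf RNA was not detectable at this depth in any genotype. Its antisense neighbour Gm15655 also had no count. The small MAF gene Maff rose by 1.07 and 0.64 on the log2 scale in knock-out and ΔTAD macrophages. The small MAF genes Mafg and Mafk went the other way in ΔTAD macrophages, by -0.18 and -0.23, and were not called in knock-out macrophages. Of 16 genes of resident macrophages under MAF, 3 were tested and 11 had at most 3 counts in every library. None of the 3 was called in knock-out macrophages, and 2 were higher and 1 lower in ΔTAD macrophages, beside 45.2% and 49.7% of all tested genes. Gas6, a ligand of the MERTK receptor, was at 43.5, 42.9 and 58.7 CPM in wild-type, knock-out and ΔTAD macrophages and was called in the last. Stab1, a scavenger receptor, fell by 0.90 on the log2 scale in ΔTAD macrophages. Cbr2, a carbonyl reductase, was higher there on small counts, 14, 16 and 20 against 2, 0 and 4 in wild-type libraries.

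Partners and cofactors of the lineage factors were read from the same fit. Of 49 genes 37 were tested: 19 were higher and 5 lower in knock-out, and 17 higher and 6 lower in ΔTAD macrophages. Beside them, 45.2% and 49.7% of all tested genes were called. Tfec, a macrophage member of the MITF family, rose from 0.245 CPM to 6.58 and 11.6 CPM. Cebpa, the C/EBP factor that acts with PU.1 in myeloid progenitors, rose from 3.04 CPM to 15.9 and 12.4 CPM. Gfi1, the repressor that opposes PU.1 and EGR factors in granulocyte fate, fell from 3.04 CPM to 0.709 and 0.816 CPM. Ets2 fell by 0.51 in knock-out and by 1.18 in ΔTAD macrophages on the log2 scale.

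Levels of different factors were compared as CPM per kb of exon. In wild-type macrophages the order was Spi1 at 43.5, Klf2 at 10.5, Runx1 at 6.92, Irf8 at 6.13, Egr2 at 1.87, Irf4 at 1, Klf4 at 0.466 and Egr1 at 0.0436 CPM per kb. In knock-out macrophages the order was the same, with Klf2 at 20.3 and Egr2 at 4.58 CPM per kb. The ranges of mean and SD overlapped for Irf4 at 0.856 (SD 0.0919) and Klf4 at 0.763 (SD 0.0906) CPM per kb. In ΔTAD macrophages Klf4 at 1.64 (SD 0.239) and Egr2 at 1.57 (SD 0.338) CPM per kb lay within their spread, as did Irf8 at 6.98 (SD 0.153) and Runx1 at 6.91 (SD 0.22) CPM per kb, and Irf4 at 0.445 CPM per kb was below Klf4. Per length of the longest transcript Runx1 (14.2) and Irf8 (12.5) stood above Klf2 in wild-type macrophages, so the order of these 3 depends on the length used.

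The genes next to each factor were read to see whether a stretch of chromosome moved with it, as the 10 tested genes on either side. Medians of the 20 neighbours lay between -0.20 and 0.07 on the log2 scale for the 7 tested factors over the 3 comparisons. A median can hide a run of genes. The tested genes from Donson to Gm16310, on one side of Runx1, were all below 0 in the knock-out, at -0.181 to -1.608. In ΔTAD macrophages all of them but Atp5o (0.038) were below 0. Beside Irf4, the run from Serpinb1a to Serpinb6b was at 0.864 to 1.968 in the knock-out and at -1.441 to 1.166 in ΔTAD macrophages. The part of such runs in these results was not tested. Egr2 in the knock-out, at 1.28, was above all 20 neighbours, the highest of which was at 0.63, and Klf2 at 0.96 was above all 20, the highest at 0.50. In ΔTAD macrophages Irf4 was below 19 of 20. Spi1, Klf2 and Klf4 each had 2 neighbours above them in ΔTAD macrophages, and Irf8 had 3. Other factors called higher in the knock-out stood out less there: 6 neighbours lay above Klf4, the highest at 4.54, 4 above Runx1, 4 above Irf8 and 2 above Spi1.

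**Figure D5:**
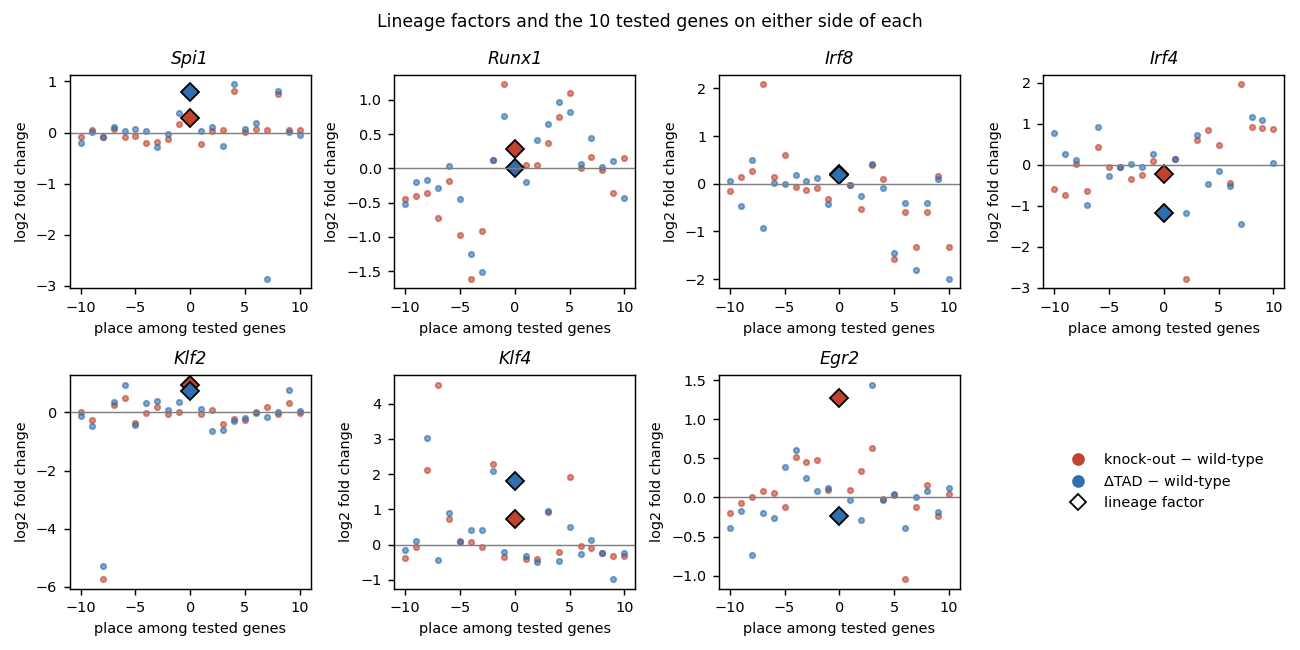
log2 fold changes against wild-type of the 7 tested lineage factors (diamonds, place 0) and of the 10 tested genes on either side (circles), ordered along the chromosome. Medians of the neighbours lie near 0, and some genes lie far away, such as one beside Klf2 at -5.72 in the knock-out. A run of genes on the left of Runx1 lies below 0 in the knock-out. Egr2 in the knock-out stands above its 20 neighbours.

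Genes whose pattern was most like that of a factor were named by the highest Pearson r of log2 CPM over the 9 libraries among 12718 genes. These libraries fall into 3 genotypes, so r mainly describes the order of 3 levels. Chaf1b, a histone chaperone subunit, was closest to Spi1 (r = 0.9973), Pkd2 was second to the antisense gene AC132148.1 for Runx1 (0.9838 and 0.993), and Ap3s2 was second for Irf8 (0.9688) after the transcript 5830408C22Rik (0.9714). Gm19721 was closest to Irf4 (0.9885). Slamf9 and Pck2 were closest to Klf2 (0.989 and 0.988), Reep5 and Gins3 to Klf4 (0.9888 and 0.9857), and Eps8 and Slfn4 to Egr2 (0.9901 and 0.9805). Fbxo21 was second for Spi1 (0.996).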

How the data were processed

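RNA of unstimulated RAW264.7 macrophages was analysed in 9 libraries, 3 per genotype. After ribosomal depletion and single-read sequencing, the authors used Trimmomatic for trimming, HISAT2 for alignment (genome GRCm38) and HTSeq for counting per Ensembl gene. The deposited values are whole-number counts without normalization. The 5 tally lines were left out: reads on no gene made up 20.58% to 25.8% of records. The strand setting of the counting is not given in the sources used here, so overlapping and antisense genes are uncertain. The submitters' processing notes give Trimmomatic 0.36 and HISAT2 2.3.4.3, and the paper names other versions of both. Genotypes came from the labels.

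The test was that of edgeR 4.0.16 (R 4.3.3): filterByExpr (minimum count 10, minimum total 15), TMM scaling, one quasi-likelihood fit of 3 genotypes to 9 libraries, and Benjamini-Hochberg adjustment over 14312 genes, with calls at an adjusted p under 0.01, the study's threshold. SE is the log2 fold change over the square root of F. The fit was tested on simulated data. DESeq2 1.42.0 and the voom method of limma 3.58.1 were tried instead, as were other scalings, filters, thresholds and library sets, and the replicate number as a block. Depth was 16113306 to 20981829 counts, with a floor of 3 counts; floors cover counting error only. Exon lengths and positions are from GENCODE, promoter windows from RefSeq (GRCm38.p6), where 6 of the 9 factors matched; no entry was used for Spi1, Egr1 and Maf.

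Members and gene lists, written from textbook knowledge, were chosen with earlier results of these data known. The rule for named genes was all 9 members, any gene from lists with 10 or fewer tested genes, in longer lists the 3 highest and 3 lowest called genes of at least 1 CPM in each comparison, the 2 genes most like each member, and Cebpd. Some results on named genes are not reported here. Genes named outside it were chosen after their values were seen.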

Additional observations from a re-analysis of the deposited data

Results flagged for a closer look

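The 2 edited genotypes differed from each other in 6 of the 7 tested lineage factors by a direct test of knock-out against ΔTAD macrophages (edgeR's quasi-likelihood test, Benjamini-Hochberg adjusted p under 0.01), beside 33% of all genes tested. The log2 fold change of knock-out over ΔTAD was -0.5 for Spi1, 0.28 for Runx1, 0.95 for Irf4, 0.23 for Klf2, -1.08 for Klf4 and 1.52 for Egr2. The Spi1, Klf4 and Klf2 differences were between 2 increases from wild-type, the Runx1 and Egr2 differences between an increase in knock-out and no call in ΔTAD macrophages, and the Irf4 difference between a decrease in ΔTAD and no call in knock-out macrophages. ΔTAD replicate 1 stood apart in its alignment and scaling, and without it the 6 differences were -0.49, 0.28, 0.99, 0.20, -0.96 and 1.48.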

How the results depend on the processing

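Of 399 member values under the alternatives, 360 kept their direction and call, 27 kept their direction and lost the call, and 12 changed sign, all of them of differences not called. The alternatives include the looser adjusted p and the fold threshold, which reuse the main fit, so under these no direction could change. The looser adjusted p could not lose a call, and part of the lost calls came from the fold threshold alone. For Runx1 in ΔTAD against wild-type macrophages, 0.00 became -0.01 with DESeq2, -0.01 with DESeq2's size factors, -0.086 with library size alone, -0.016 with at least 10 counts in every library, -0.002 with only the 2 genotypes compared, and -0.026 to 0 where leaving out 1 library changed the sign. For Irf8 in knock-out against ΔTAD macrophages, leaving out a library gave values from -0.032 to 0.056, among them -0.003. Requiring a difference of at least 1 (log2) left 1096 genes called between knock-out and wild-type, 1333 between ΔTAD and wild-type and 563 between the edited genotypes, among them 1, 2 and 2 members. With library size alone, the share of calls that were higher moved from 52.9% to 39.6% in ΔTAD against wild-type and from 42.1% to 69% in knock-out against ΔTAD macrophages. Leaving out each library in turn gave 4 to 6, 4 to 5 and 5 to 6 members called. Over all tested genes, the fit to all 9 libraries called 45.2%, 49.7% and 33%. Without ΔTAD replicate 1 the last 2 of these shares were 47.5% and 30.9%. With calls this frequent, the member counts say little of these factors in particular. Levels per kb by the longest transcript, in wild-type, knock-out and ΔTAD macrophages, were 57.61, 70.37 and 99.71 for Spi1, 14.19, 17.22 and 14.18 for Runx1 and 12.47, 14.4 and 14.19 for Irf8, and for Egr2 2.142 in wild-type and 5.243 in knock-out macrophages, since that length is shorter than all exons joined. The replicate block gave 6, 5 and 6 members called, changed no call of a member, and left Runx1 in ΔTAD macrophages at 0. Libraries with the same donor number in the labels, 1 to 3, correlated at -0.072 to 0.02 in their deviations, and 1 of 9 libraries was closest to its own number, so the donor numbers were not taken to pair the libraries. The titles give the third libraries other numbers, 5, 5 and 4 in knock-out, ΔTAD and wild-type macrophages. Egr1, at up to 12 counts, and Klf4 in wild-type macrophages are limited by depth.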
